A study of Mus musculus with 6 samples.

Results

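The genes described here are 10 circadian clock genes, Arntl, Per1, Per2, Per3, Cry1, Cry2, Nr1d1, Nr1d2, Bhlhe40 and Dbp, taken by symbol from a table of 21240 counted genes. All 10 were found, and all 10 were among the 11080 genes with 2 or more CPM (counts scaled to library size) in 2 or more libraries, which were tested. In the mammalian clock, the proteins of Arntl (also called BMAL1) and Clock pair on E-box elements and switch on the Per and Cry genes, whose proteins return to the nucleus and repress that pair. In a connected loop, the REV-ERB receptors made from Nr1d1 and Nr1d2 repress Arntl, while receptors of the ROR family activate it. Bhlhe40 is a repressor that acts on E-boxes, and Dbp is an activator that carries the rhythm to genes with D-box elements.

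The libraries came from NMuMG, an epithelial line of the normal murine mammary gland, in which TGFβ is known to drive an epithelial-mesenchymal transition. Cells were kept without serum or insulin for 6 h and then given TGFβ1 at 5 ng/ml for 2 h, the same dose for 12 h, or the vehicle for 2 h. One label gives the vehicle as HCl with BSA and another as Tris-HCl with BSA. Total RNA was sequenced by a strand-specific protocol from 2 biological replicates of each of the 3 groups, 6 libraries in all. No vehicle library of 12 h was analysed here. At 12 h against vehicle, the TGFβ treatment, the longer time without serum or insulin and the later collection cannot be told apart. A rhythm of these genes over that time was not tested. The time without serum or insulin and the time of collection also separate the 12 h and 2 h libraries from each other.

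Depth per library ran from 14705886 counts (vehicle replicate 2) to 23786993 counts (12 h replicate 1). Between the replicates of a group, the median absolute difference in log2 CPM over the tested genes was 0.15 for vehicle, 0.22 at 2 h and 0.13 at 12 h, and the 2 h libraries were thus the least alike. The nuclear RNA Malat1 took 4.14% and 2.64% of the counts in the 2 h libraries. Vehicle had 5.22% and 4.46%, and 12 h had 5.34% and 4.68%. Its share was lowest in 2 h replicate 2, and its part in the results was not tested. Levels are given below as CPM normalized by TMM, always as replicate 1 and then replicate 2. A gene was called higher or lower at an adjusted p under 0.05 in the quasi-likelihood test of edgeR, with Benjamini-Hochberg adjustment over all tested genes, and this is the test behind every adjusted p credited to edgeR.

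Known TGFβ target genes followed the labels. Smad7, an inhibitor of the TGFβ receptor, had 38.9 and 25.9 CPM in vehicle, 169 and 103 CPM at 2 h, and 211 and 196 CPM at 12 h. The 3 groups did not overlap, and both times were called higher than vehicle (log2FC 2.07 and 2.65). Skil, a repressor that binds SMAD proteins, rose at both times as well, with a log2FC of 2.09 and 2.21. The epithelial keratins Krt8, Krt18 and Krt19 and the cadherin Cdh1 were abundant, and the summed level of the 8 epithelial markers, led by Krt18, was 5786 and 4965 CPM in vehicle, 6447 and 6482 CPM at 2 h, and 10332 and 10379 CPM at 12 h. These markers did not move together, since at 12 h Krt8, Krt18 and the much scarcer Krt7 were called higher than vehicle (log2FC 1.63, 1.53 and 1.60), Krt19 was called lower (log2FC -1.95) and Cdh1 was not called (log2FC -0.07). The epithelial markers Epcam, Cldn7 and Esrp1 did not reach the filter, and none of them passed 0.697 CPM in any library.

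Markers of other cell types were low. Of 7 fibroblast markers, 2 reached the filter, Thy1 had no count in any library, and the summed level was 5.24 and 3.57 CPM in vehicle, 9.67 and 8.98 CPM at 2 h, and 15.6 and 13.5 CPM at 12 h. Pdgfra was the most abundant of them in vehicle and Col1a1 at both times of TGFβ, where Col1a1 was called higher (log2FC 2.59 and 3.51) and Pdgfra was not called. Of 6 basal or myoepithelial markers, Krt14 alone reached the filter, Oxtr had no count, and the sums were 5.06 and 2.74 CPM in vehicle, 8.40 and 11.9 CPM at 2 h, and 5.54 and 8.84 CPM at 12 h. The part of these shifts in the clock genes' results was not tested. Of 6 immune markers, Cd68 alone reached the filter, and the sums lay between 5.10 and 7.39 CPM. None of the 5 endothelial and 4 adipocyte markers reached the filter. The endothelial sum, led by Cdh5, was 0.177 and 0.255 CPM in vehicle, 0.354 and 0.404 CPM at 2 h, and 1.74 and 1.95 CPM at 12 h, and the adipocyte sum was at most 0.304 CPM. Since these are bulk samples, fewer cells that express a gene and less of its RNA per cell cannot be told apart.

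The clock genes differed widely in abundance. Per kb of exon, the level in the vehicle libraries was highest for Bhlhe40, at 25.9 ± 4.94 CPM per kb (SD, n = 2), followed by Nr1d2 at 12.8 ± 0.815 and Arntl at 9.75 ± 0.0168 CPM per kb. Dbp (4.55 ± 0.436 CPM per kb), Cry2 (4.43 ± 0.323) and Per3 (4.03 ± 0.180) came next, and these neighbors in the order differed by less than their spread or about as much. The lowest levels per kb were those of Cry1 (2.86 ± 0.300), Per2 (2.43 ± 0.173), Nr1d1 (2.38 ± 0.158) and Per1 (1.85 ± 0.119). Per2 and Nr1d1 did not differ beyond their spread.

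After 12 h of TGFβ the order of these levels was another. Bhlhe40 stood at 188 ± 3.69 CPM per kb, ahead of Nr1d2 at 15.1 ± 3.49 and Arntl at 8.33 ± 1.33 CPM per kb. Nr1d1 came after them at 4.33 ± 0.448 CPM per kb, and Dbp had the lowest level of the 10, at 0.754 ± 0.167 CPM per kb. Cry1 (2.74 ± 0.350), Per3 (2.39 ± 0.0891) and Cry2 (2.34 ± 0.223) lay close together, as did Per1 (1.46 ± 0.192) and Per2 (1.32 ± 0.0156).

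**Figure D1:**
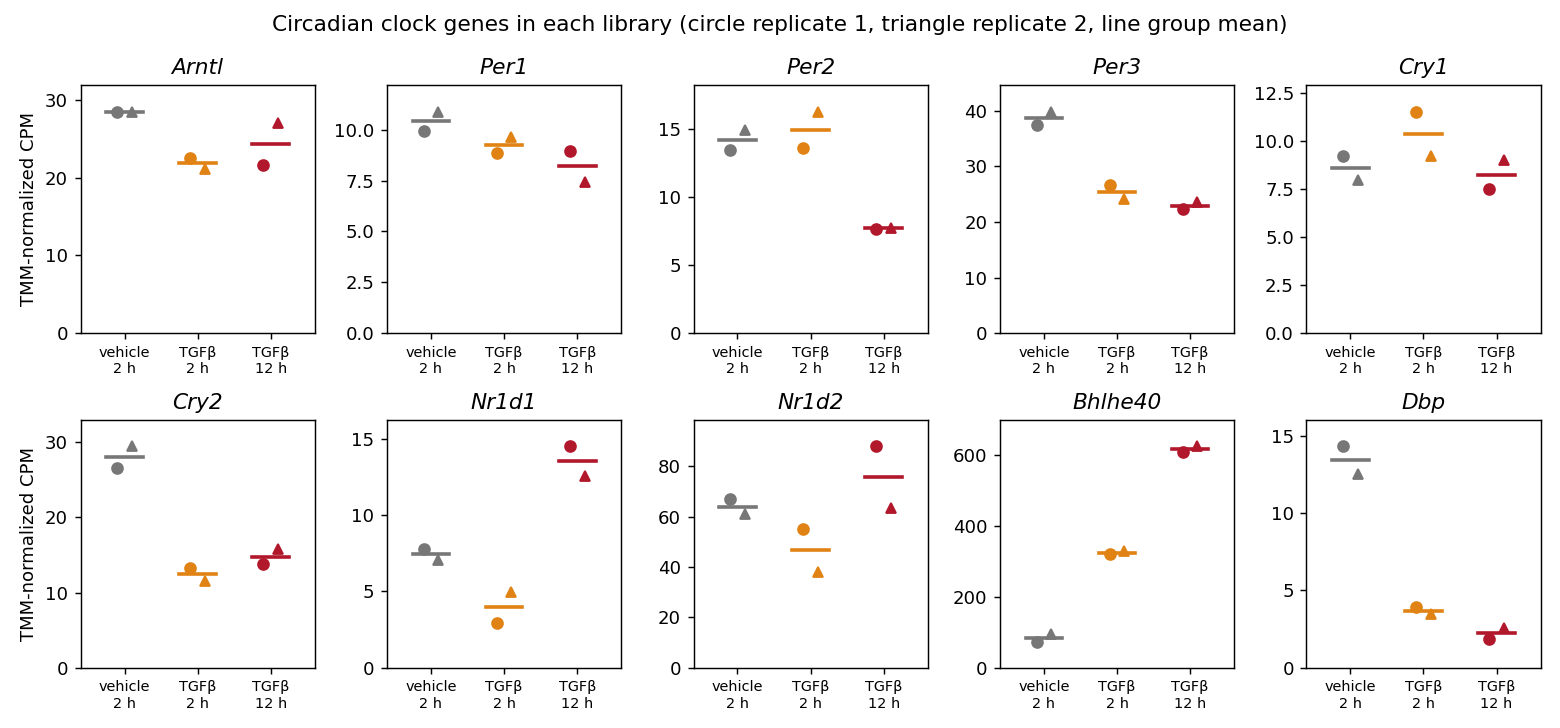
Level of each of the 10 clock genes in every library, as TMM-normalized CPM on a linear axis from 0, with a circle for replicate 1, a triangle for replicate 2 and a line for the mean of the group. Bhlhe40 lies at 73.3 and 96.1 CPM in vehicle and at 607 and 625 CPM at 12 h, while Dbp lies at 14.3 and 12.5 CPM in vehicle and at 1.87 and 2.57 CPM at 12 h.

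At 2 h of TGFβ, Bhlhe40 rose while Dbp, Cry2 and Per3 fell, so that 4 of the 10 genes were called, against 15.2% of all tested genes (9.91% higher and 5.25% lower). At 12 h, Bhlhe40 and Nr1d1 were higher than with vehicle and Dbp, Cry2, Per2 and Per3 were lower, 6 of 10 genes against a background of 43.3% (21.8% higher and 21.5% lower). Between 2 h and 12 h, Nr1d1 and Bhlhe40 rose and Per2 fell, 3 of 10 against 34.1% (15.2% higher and 18.9% lower). Per1, Cry1, Nr1d2 and Arntl were called in none of these contrasts. With an absolute log2FC above 1 as a further condition, 3 genes were called at 2 h (background 6.25%), 2 at 12 h (19.6%) and 1 between the times (14.4%). With so many genes called at 12 h, the count there is not read as a result about clock genes as a group. Nor are the counts at 2 h and between the times, since the genes were chosen with earlier results of these data known.

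The median log2FC of the 10 genes was -0.42 at 2 h and -0.29 at 12 h, where the medians over all tested genes were -0.01 and 0.02. Between 2 h and 12 h it was 0.00 against 0.01. The median absolute log2FC was 0.53 at 2 h, 0.81 at 12 h and 0.52 between the times, and over all tested genes it was 0.24, 0.39 and 0.33. For 8 of the 10 genes the treated and vehicle libraries did not overlap at 2 h, as for 55.8% of all tested genes. The same number, 8, did not overlap between 12 h and vehicle (background 76.8%) and between 12 h and 2 h (69%). Over all tested genes, the calls at 2 h were 1098 higher against 582 lower, which became 854 against 975 with total counts in place of TMM. The calls at 12 h were 2414 higher against 2385 lower, which became 1830 against 3047.

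Arntl (Entrez 11865, chromosome 7, 120350979 to 120457636 on the plus strand of NCBIM37, the mm9 build) codes for the activator that pairs with CLOCK. It had 28.6 and 28.5 CPM in vehicle, 22.6 and 21.1 CPM at 2 h, and 21.6 and 27.1 CPM at 12 h. The vehicle libraries were above all TGFβ libraries, and 12 h replicate 1 lay among the 2 h values. The log2FC was -0.38 at 2 h (95% CI -0.74 to -0.03, edgeR's adjusted p = 0.142) and -0.23 at 12 h (-0.58 to 0.12), and neither passed the test. With a library left out, the log2FC of Arntl at 12 h ran from -0.4104 to -0.0858. Its partner gene Clock had 103 and 108 CPM in vehicle and 156 and 159 CPM at 2 h, and 116 and 109 CPM at 12 h. Clock was thus called higher at 2 h (log2FC 0.57, SE 0.10, edgeR's adjusted p = 0.0103) and lower at 12 h than at 2 h (log2FC -0.48, edgeR's adjusted p = 0.00943). Of the related subunits, Npas2 did not reach the filter, and Arntl2 was higher at 12 h than at 2 h, by a log2FC of 1.40, with at most 5.19 CPM.

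The Per genes code for the PERIOD proteins, which with the CRY proteins repress the CLOCK and ARNTL pair. Per1 (18626, chromosome 11, 68908719 to 68923462, plus strand) had 9.95 and 10.9 CPM in vehicle, 8.86 and 9.64 CPM at 2 h, and 8.98 and 7.45 CPM at 12 h. All 4 TGFβ libraries lay below both vehicle libraries, and 2 h and 12 h overlapped. Its log2FC was -0.17 at 2 h (95% CI -0.60 to 0.25) and -0.34 at 12 h (-0.77 to 0.08), and no contrast of Per1 passed the test. These intervals leave room for a fall, but not for a rise of Per1 by a log2FC above 0.25 at 2 h.

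Per2 (18627, chromosome 1, 93312561 to 93355907, minus strand) behaved differently at the 2 times. It had 13.5 and 14.9 CPM in vehicle, 13.6 and 16.3 CPM at 2 h, and 7.63 and 7.76 CPM at 12 h. The 2 h libraries overlapped with vehicle, and both 12 h libraries were below the other 4. At 2 h the log2FC was 0.08 (95% CI -0.31 to 0.47), and its sign turned with total counts in place of TMM. At 12 h Per2 fell against vehicle (log2FC -0.88, SE 0.17, edgeR's adjusted p = 0.00583) and against 2 h (log2FC -0.96, SE 0.17, edgeR's adjusted p = 0.00603). Without 12 h replicate 1 the fall against 2 h had an adjusted p of 0.0534 in the quasi-likelihood test of edgeR with Benjamini-Hochberg adjustment, in a range of 0.00540 to 0.0534 over the libraries left out.

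Per3 (18628, chromosome 4, 150377761 to 150418774, minus strand) had 37.5 and 39.9 CPM in vehicle, 26.6 and 24.2 CPM at 2 h, and 22.3 and 23.5 CPM at 12 h. The vehicle libraries stood above all 4 TGFβ libraries, and the 12 h libraries were a little below those at 2 h. Per3 fell at 2 h (log2FC -0.61, SE 0.12, edgeR's adjusted p = 0.0197) and was lower than vehicle at 12 h (log2FC -0.75, SE 0.12, edgeR's adjusted p = 0.00287). From 2 h to 12 h the log2FC was -0.15 (95% CI -0.44 to 0.14), which did not pass. The call at 2 h was the least firm of the 4 at that time. Its adjusted p in edgeR's test was 0.0584 with only the 2 groups in the fit, and it ran from 0.0228 to 0.114 over the libraries left out, with 0.0875 and 0.114 without vehicle replicates 1 and 2, 0.0614 without 2 h replicate 2, and 0.0594 and 0.0588 without 12 h replicates 1 and 2. Over the settings with all libraries, DESeq2 and limma-voom included, the range was 0.00152 to 0.0584.

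The cryptochromes Cry1 and Cry2 are the other arm of this repressor complex, and Cry2 was called at both times while Cry1 was called at neither. Cry2 (12953, chromosome 2, 92243803 to 92274200, minus strand) had 26.6 and 29.4 CPM in vehicle, 13.3 and 11.6 CPM at 2 h, and 13.8 and 15.8 CPM at 12 h. Both vehicle libraries lay far above the 4 TGFβ libraries, and the 12 h values were slightly above the 2 h values. Cry2 fell 2.26-fold at 2 h (log2FC -1.17, SE 0.15, edgeR's adjusted p = 0.00435) and was 1.90-fold below vehicle at 12 h (log2FC -0.92, SE 0.15, edgeR's adjusted p = 0.00338). The difference between 12 h and 2 h was a log2FC of 0.25 (95% CI -0.12 to 0.62) and did not pass.

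Cry1 (12952, chromosome 10, 84594447 to 84647799, minus strand) had 9.25 and 7.97 CPM in vehicle, 11.5 and 9.24 CPM at 2 h, and 7.50 and 8.99 CPM at 12 h. The ranges of 2 h and of 12 h each overlapped with that of vehicle. The log2FC was 0.27 at 2 h (95% CI -0.21 to 0.75) and -0.06 at 12 h (-0.55 to 0.42), neither of which passed the test. A fall by a log2FC of 1 is outside both intervals. With a library left out, the log2FC of Cry1 at 2 h ran from 0.0824 to 0.4224. Whether the change of Cry1 differs from that of Cry2 was not tested.

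Nr1d1 and Nr1d2 code for the receptors REV-ERBα and REV-ERBβ, which repress Arntl and other genes with ROR elements. Nr1d1 (217166, chromosome 11, 98629246 to 98636647, minus strand) had 7.77 and 7.08 CPM in vehicle, 2.94 and 5.00 CPM at 2 h, and 14.5 and 12.5 CPM at 12 h. The 3 groups did not overlap, with 2 h at the bottom, vehicle between and 12 h on top. At 2 h the log2FC was -0.90 (95% CI -1.56 to -0.25), which missed the threshold (edgeR's adjusted p = 0.0759). The 2 h values rest on 58 and 99 counts, and with a library left out this log2FC ran from -1.3368 to -0.5898. At 12 h Nr1d1 was 1.82-fold above vehicle (log2FC 0.86, SE 0.26, edgeR's adjusted p = 0.0360) and 3.41-fold above 2 h (log2FC 1.77, SE 0.27, edgeR's adjusted p = 0.00388).

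Of these calls for Nr1d1, that of 12 h against vehicle was the less firm. Its adjusted p in the quasi-likelihood test of edgeR with Benjamini-Hochberg adjustment was 0.0673 with total counts in place of TMM, within 0.00658 to 0.0673 over the settings that kept all libraries, DESeq2 and limma-voom included. Leaving out vehicle replicate 1 or 2 gave 0.106 or 0.149 in the same edgeR test, and leaving out 12 h replicate 1 or 2 gave 0.181 or 0.103, within a range of 0.00715 to 0.181. At 2 h, Nr1d1 was called lower by DESeq2 (adjusted p = 0.0404) and, in edgeR's test, with the replicate number as a block (0.0246) and without 2 h replicate 2 (0.0167), while the highest adjusted p was 0.262 over the libraries left out and 0.148 over the other settings and tools. In the gene annotation Nr1d1 overlaps by 1075 bp with Thra and Dbp by 689 bp with Sphk2, both on the opposite strand, and reads were counted by strand. Annotated genes that are not in the count table overlap Cry2 (D930015M05Rik, by 23417 bp) and Bhlhe40 (0610040F04Rik, by 306 bp), also on the opposite strand.

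Nr1d2 (353187, chromosome 14, 19036568 to 19071641, minus strand) had 66.9 and 61.1 CPM in vehicle, 55.3 and 38.0 CPM at 2 h, and 88.0 and 63.3 CPM at 12 h. Its replicates were far apart at both times of TGFβ, with replicate 1 above replicate 2 in each group. The 2 h libraries were below both vehicle libraries, and the 12 h range overlapped with vehicle. The log2FC was -0.46 at 2 h (95% CI -0.99 to 0.08), 0.24 at 12 h (-0.29 to 0.77) and 0.70 between the times (0.17 to 1.23, edgeR's adjusted p = 0.0509), and none of these passed. With a library left out the log2FC ran from -0.7708 to -0.2103 at 2 h, from -0.0297 to 0.4485 at 12 h and from 0.4311 to 0.9951 between the times, so its size rests on single libraries. Between the times Nr1d2 was called higher by DESeq2 (adjusted p = 0.0151), and in the quasi-likelihood test of edgeR with Benjamini-Hochberg adjustment with total counts (0.0455), without a filter (0.0383), with the replicate number as a block (0.00115) and without 2 h replicate 1 (0.0107). At 2 h it was called lower with the block (edgeR's adjusted p = 0.0162) and without 2 h replicate 1 (0.0416). Over all libraries left out, edgeR's adjusted p ran from 0.0107 to 0.297 between the times and from 0.0416 to 0.572 at 2 h, while the other settings and tools gave at most 0.0716 and 0.255.

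Bhlhe40, also named Dec1, codes for a repressor that competes at E-boxes, and it had the largest rise of the 10 genes. It is gene 20893 on chromosome 6, from 108610623 to 108616919 on the plus strand. Its level was 73.3 and 96.1 CPM in vehicle, 320.4 and 329 CPM at 2 h, and 607 and 625 CPM at 12 h. The 3 groups were well apart, with vehicle lowest, 2 h of TGFβ between and 12 h highest. Bhlhe40 rose 3.83-fold at 2 h (log2FC 1.94, SE 0.15, edgeR's adjusted p = 0.00063) and 7.27-fold at 12 h (log2FC 2.86, SE 0.15, edgeR's adjusted p = 5.15e-05). From 2 h to 12 h it rose 1.90-fold (log2FC 0.92, SE 0.14, edgeR's adjusted p = 0.00379). Its relative Bhlhe41, or Dec2, had 5.77 and 7.52 CPM in vehicle, 4.81 and 5.75 CPM at 2 h, and 2.18 and 2.47 CPM at 12 h. Bhlhe41 fell at 12 h (log2FC -1.52, SE 0.24, edgeR's adjusted p = 0.00311), in the direction opposite to that of Bhlhe40.

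Dbp (13170, chromosome 7, 52960458 to 52965525, plus strand), the D-box activator, had the largest fall of the 10 genes. It had 14.3 and 12.5 CPM in vehicle, 3.90 and 3.48 CPM at 2 h, and 1.87 and 2.57 CPM at 12 h, the last from 43 and 50 counts. The vehicle libraries were far above the others, and both 12 h libraries were below both 2 h libraries. Dbp fell 3.63-fold at 2 h (log2FC -1.86, SE 0.22, edgeR's adjusted p = 0.00323) and 6.05-fold at 12 h (log2FC -2.60, SE 0.23, edgeR's adjusted p = 0.000299). The further step from 2 h to 12 h, a log2FC of -0.74 (95% CI -1.31 to -0.17), had an adjusted p of 0.0535 in the quasi-likelihood test of edgeR with Benjamini-Hochberg adjustment. That step passed with total counts (edgeR's adjusted p = 0.0486), with a filter of at least 10 counts in every library (0.0482) and with the replicate block (0.0290), in a range of 0.0290 to 0.110 over the settings and tools with all libraries and of 0.0749 to 0.245 with a library left out.

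**Figure D2:**
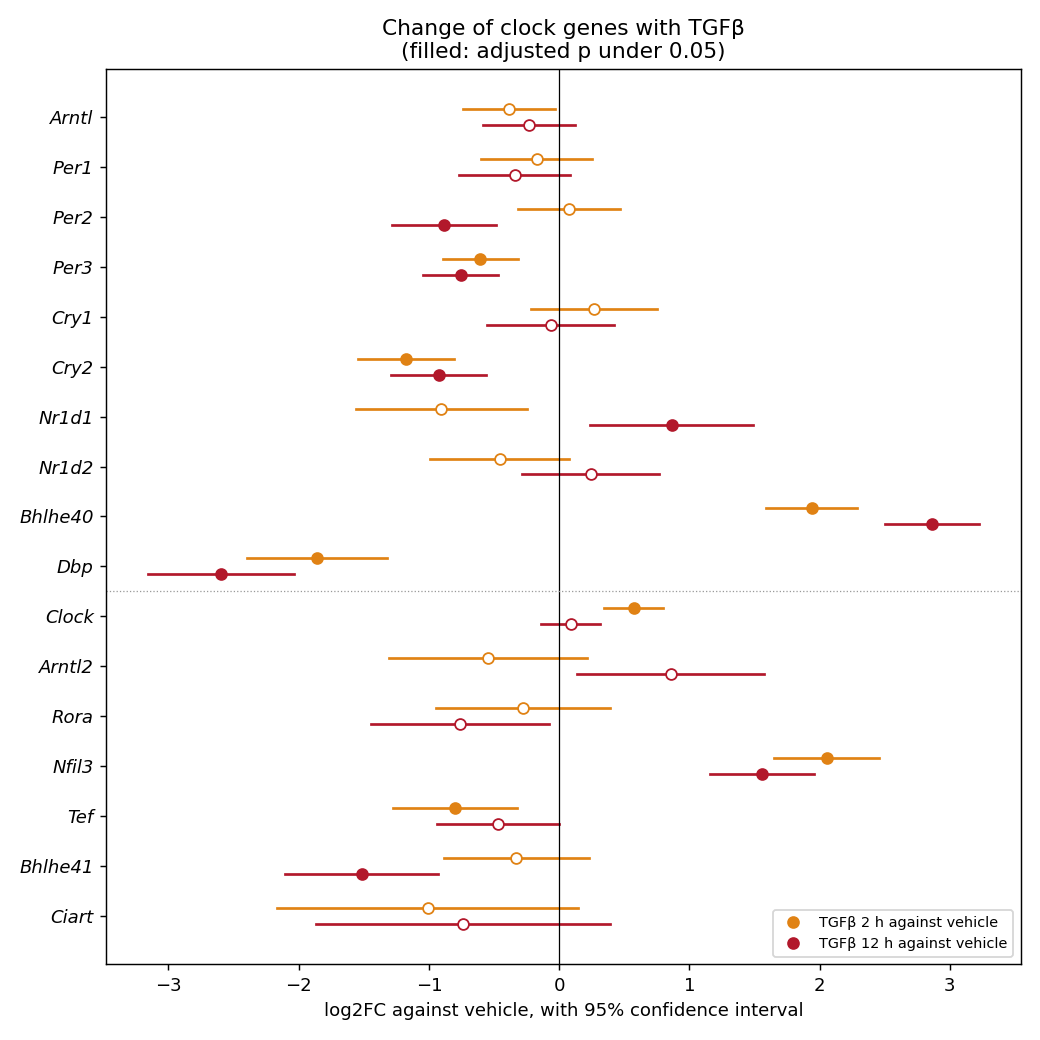
Change against vehicle (log2FC) after 2 h and 12 h of TGFβ for the 10 clock genes, above the dotted line, and 7 other core clock genes, below it, with bars for the 95% confidence interval and filled points for an adjusted p under 0.05 in edgeR's quasi-likelihood test. Both times share the vehicle libraries. Bhlhe40 (1.94 and 2.86) and Dbp (-1.86 and -2.60) lie farthest from 0 among the 10.

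Other core clock genes moved in both directions. Of 10 listed, 7 were tested, and 3 were called at 2 h (2 higher, 1 lower), 2 at 12 h (1 higher, 1 lower) and 3 between the times (1 higher, 2 lower), beside 15.2%, 43.3% and 34.1% of all tested genes. Npas2, Rorb and Hlf did not reach the filter, and Hlf had no count in any library. The median log2FC of the 7 tested genes was -0.33 at 2 h, -0.47 at 12 h and -0.48 between the times. Among the factors that bind D-boxes, Nfil3, a repressor, had 16.5 and 18.1 CPM in vehicle, 81.9 and 61.9 CPM at 2 h, and 47.6 and 54.0 CPM at 12 h. All 4 TGFβ libraries were above vehicle, and the 2 h values were on top. Nfil3 rose by a log2FC of 2.06 at 2 h (SE 0.17, edgeR's adjusted p = 0.000823) and of 1.55 at 12 h (SE 0.17, edgeR's adjusted p = 0.000583).

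Tef, a D-box activator of the same family as Dbp, had 239.8 and 194 CPM in vehicle, 148 and 101 CPM at 2 h, and 152 and 161 CPM at 12 h. Its vehicle libraries were above the other 4, and it fell at 2 h (log2FC -0.80, SE 0.20, edgeR's adjusted p = 0.0405). At 12 h its log2FC was -0.47 (95% CI from -0.94 to just below 0), which did not pass. Rora and Ciart, a further repressor of the CLOCK and ARNTL pair, were called in none of the contrasts.

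A further list held kinases, ubiquitin ligase subunits and other regulators of the clock proteins. Of 9 listed, 7 were tested, and none was called lower in any contrast, with 2 higher at 2 h, 3 at 12 h and 1 between the times, beside 9.91%, 21.8% and 15.2% of all tested genes called higher and 5.25%, 21.5% and 18.9% called lower. Fbxl21 and Usp2 did not reach the filter. Csnk1e, the casein kinase that phosphorylates PER proteins, had 108 and 116 CPM in vehicle, 203 and 207 CPM at 2 h, and 240.4 and 251 CPM at 12 h. Its groups did not overlap, and it rose at both times (log2FC 0.87 and 1.13, SE 0.10 each, edgeR's adjusted p = 0.00228 and 0.000239). Csnk1d, its close relative, rose by 0.61 and 0.45 on the log2 scale. Fbxw11, a subunit of a ligase for PER proteins, was higher at 12 h (log2FC 0.49), and the related Btrc was higher at 12 h than at 2 h (log2FC 0.46). Median log2FC over the 7 genes was 0.05 at 2 h, 0.27 at 12 h and -0.04 between the times.

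Of 9 genes known as inputs or outputs of the clock, all were tested, and 5 were called at 2 h (3 higher, 2 lower), 6 at 12 h (4 higher, 2 lower) and 5 between the times (2 higher, 3 lower), beside 15.2%, 43.3% and 34.1% of all tested genes. Their median log2FC was 0.11, 0.36 and 0.24. Klf10, a zinc finger factor also known as a gene induced early by TGFβ, had 43.1 and 47.8 CPM in vehicle, 159.5 and 172 CPM at 2 h, and 213 and 178 CPM at 12 h. Klf10 rose by a log2FC of 1.87 at 2 h and 2.11 at 12 h. Noct, a phosphatase with rhythmic expression, rose by 1.35 and 1.68, and Fkbp5, a chaperone of the glucocorticoid receptor, by 1.43 and 1.67. Nampt, the rate-limiting enzyme of NAD salvage, had 184 and 178 CPM in vehicle, 115 and 105 CPM at 2 h, and 46.5 and 47.1 CPM at 12 h. It fell by 0.72 at 2 h and by 1.95 at 12 h on the log2 scale.

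Tsc22d3, which codes for the glucocorticoid-induced protein GILZ, fell by 0.69 at 2 h and by 1.64 at 12 h on the log2 scale. Tsc22d3 and Fkbp5, both known to be induced by glucocorticoids, thus changed in opposite directions. Klf9 was higher at 12 h than with vehicle (log2FC 0.78) and than at 2 h (0.69). Wee1, a kinase that holds back mitosis, was lower at 12 h than at 2 h (log2FC -0.93), and Crem, a CREB family factor, was higher (0.77), while neither was called against vehicle. Sik1 was called in no contrast.

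Genes outside these lists with the most similar changes were sought for the 3 clock genes with the largest change at 12 h, as the smallest distance in the pair of log2FC at 2 h and 12 h. Nearest to Bhlhe40 were Nuak2 (log2FC 1.86 and 2.83, distance 0.09), Myzap (1.91 and 2.68, distance 0.19) and Nrp2 (2.18 and 2.92, distance 0.25). Nearest to Dbp were Foxa2 (-1.94 and -2.62, distance 0.09), Slc26a2 (-1.77 and -2.54, distance 0.10) and Tnip3 (-1.92 and -2.50, distance 0.11), of which Tnip3 was not called at 2 h (edgeR's adjusted p = 0.145). Nearest to Cry2 were Zfp825 (-1.20 and -0.95), Ppm1k (-1.13 and -0.91) and Zfp667 (-1.19 and -0.98), all within a distance of 0.06. Few genes came as close to Bhlhe40 and Dbp, with 2 and 5 genes within a distance of 0.25, where Cry2 had 35. By absolute log2FC at 12 h against vehicle, Bhlhe40 and Dbp ranked 539 and 623 of 11080 genes, and Cry2 ranked 2465. Whether other genes with changes as large have more close genes was not tested. The log2FC at 2 h and at 12 h rest on the same vehicle libraries.

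The nearest counted gene on either side of each clock gene, by start site on NCBIM37, gave 20 neighbors, of which 16 were tested. The distance between start sites ran from 5245 bp (Car11 and Dbp) to 578167 bp (Thrb and Nr1d2), so a neighbor can lie far away. At 2 h, 1 of the 16 was called, Mterf2 beside Cry1 (log2FC -0.74, edgeR's adjusted p = 0.0277), against 15.2% of all genes, and at 12 h 5 were called, 1 higher and 4 lower, against 43.3%. Between the times 7 were called, 3 higher and 4 lower, against 34.1%. The neighbors of Bhlhe40, Itpr1 (log2FC 0.17 and 0.25) and Arl8b (0.05 and -0.25), did not pass at either time, and neither did Rpl18 beside Dbp (0.00 and -0.16). Thra beside Nr1d1 fell at 12 h (log2FC -0.89, edgeR's adjusted p = 0.00102), when Nr1d1 was higher. Thrb beside Nr1d2 fell at 12 h as well (log2FC -1.70, edgeR's adjusted p = 0.00144), as did Mapk8ip1 beside Cry2 (-1.66, edgeR's adjusted p = 0.000659) and Traf3ip1 beside Per2 (-0.53, edgeR's adjusted p = 0.0464). Btbd11, 201760 bp from Cry1, which was itself not called, rose by a log2FC of 3.42 at 12 h.

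Promoter sequences were taken from a RefSeq table on build GRCm38.p6 that holds 250 bases before and 50 after each gene's start, and 8 of the 10 genes matched, with 10 windows. Per2 and Bhlhe40 were not matched. Both strands were searched for the E-box CACGTG, the E'-box CACGTT, which differs from it in the last letter, the D-boxes TTATGTAA and TTACGTAA, the ROR and REV-ERB element TAGGTCA, the CRE TGACGTCA, the AP-1 element TGANTCA and the SMAD palindrome GTCTAGAC. Over 32851 promoter windows of the same length, an E-box was in 7.15%, an E'-box in 4.68%, a D-box in 1.06%, a ROR element in 2.61%, a CRE in 1.79%, an AP-1 element in 7.81% and the SMAD palindrome in 0.213%. None of the 10 windows held the CRE, AP-1 or SMAD letters. Such a match is only a description of the letters.

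The window of Per3 held the D-box TTATGTAA at 205 and at 158 bases before the start, and 2 or more D-boxes were found in 8 of all windows, or 0.0244%. An E'-box began 166 bases before the start of Cry2 and 28 before that of Nr1d1. Cry1 had an E'-box at 79 bases and an E-box at 60 bases before its start, and Per1 an E-box at 166 bases before the start of 1 of its 2 windows. The windows of Dbp and Nr1d2 held none of these letters. The 250 bases before the start are given for genes that were called against vehicle (Per3, Cry2, Nr1d1 and Dbp), to set them beside genes that were not (Cry1 and Per1), with the matches in capitals. They lie at chr4:151044666-151044915 (minus strand) for Per3, chr2:92434070-92434319 (minus) for Cry2, chr11:98775378-98775627 (minus) for Nr1d1, chr7:45704997-45705246 (plus) for Dbp, chr10:85185055-85185304 (minus) for Cry1 and chr11:69098699-69098948 (plus) for Per1, all upstream of the transcribed part, and each is written 5′ to 3′ in the direction of its gene.
Per3: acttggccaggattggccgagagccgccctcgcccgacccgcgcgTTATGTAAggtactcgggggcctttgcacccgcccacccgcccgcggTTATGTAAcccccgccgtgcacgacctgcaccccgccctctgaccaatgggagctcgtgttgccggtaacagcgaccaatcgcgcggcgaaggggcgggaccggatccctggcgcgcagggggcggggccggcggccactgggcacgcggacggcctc
Cry2: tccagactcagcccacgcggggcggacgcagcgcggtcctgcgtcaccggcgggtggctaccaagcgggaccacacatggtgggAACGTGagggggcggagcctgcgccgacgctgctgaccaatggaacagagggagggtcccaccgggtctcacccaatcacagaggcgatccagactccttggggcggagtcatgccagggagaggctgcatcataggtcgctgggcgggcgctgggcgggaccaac
Nr1d1: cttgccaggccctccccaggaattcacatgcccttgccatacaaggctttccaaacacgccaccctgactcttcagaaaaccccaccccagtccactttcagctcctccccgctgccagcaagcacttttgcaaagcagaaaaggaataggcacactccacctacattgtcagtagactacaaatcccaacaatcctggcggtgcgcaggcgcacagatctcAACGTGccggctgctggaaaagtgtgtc
Dbp: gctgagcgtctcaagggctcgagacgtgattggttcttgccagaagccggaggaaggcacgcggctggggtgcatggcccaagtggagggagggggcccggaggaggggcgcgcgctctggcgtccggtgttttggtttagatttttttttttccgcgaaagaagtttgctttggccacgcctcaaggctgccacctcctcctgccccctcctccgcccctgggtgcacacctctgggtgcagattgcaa
Cry1: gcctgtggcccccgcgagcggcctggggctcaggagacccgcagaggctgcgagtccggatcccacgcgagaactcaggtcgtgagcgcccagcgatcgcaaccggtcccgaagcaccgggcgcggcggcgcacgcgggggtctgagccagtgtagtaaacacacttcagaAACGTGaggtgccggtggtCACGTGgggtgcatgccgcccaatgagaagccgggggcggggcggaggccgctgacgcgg
Per1: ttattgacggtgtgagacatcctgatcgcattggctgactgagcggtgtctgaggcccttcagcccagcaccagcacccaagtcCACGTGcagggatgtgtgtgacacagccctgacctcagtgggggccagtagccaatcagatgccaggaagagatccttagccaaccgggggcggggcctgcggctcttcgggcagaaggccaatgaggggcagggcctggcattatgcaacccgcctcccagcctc

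Arntl, the gene that REV-ERB receptors are known to repress, held the ROR and REV-ERB element in 1 of its 2 windows, from base 31 of the transcribed part, at chr7:113207541-113207547 on the plus strand. The 30 bases at chr7:113207529-113207558 around it are shown with the element in capitals.
Arntl: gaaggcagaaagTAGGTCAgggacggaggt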

How the data were processed

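RNA-seq counts of 6 libraries were analysed. By the study's methods, the authors aligned reads to mm9 with subjunc of Rsubread, kept unique alignments, removed duplicates with SAMtools 0.1.19 and counted reads on exons by strand with featureCounts. The deposited values are raw counts per gene, without normalization. Genes with 2 or more CPM in 2 or more libraries entered 1 quasi-likelihood fit of the 3 groups with TMM factors (edgeR 4.0.16 in R 4.3.3), two-sided, with Benjamini-Hochberg adjustment within each contrast. The standard error is the absolute log2FC over the square root of F. The steps were tested on simulated data. All 10 clock genes are named, as are genes of the other clock lists and TGFβ targets that were called in any contrast or failed the filter. Some genes of the lists fixed before are not reported here, and counts over lists leave them out. Members and lists were chosen with earlier results of these data known. Neighboring genes were looked at after the counts had been seen, and the cell type markers named, Rora, Ciart and Sik1, all outside the naming rule, were named after their values were seen. Positions and exon lengths come from GENCODE on NCBIM37 (Python 3.11.15), while the authors counted on UCSC genes. As alternatives, the tests were repeated with limma-voom (limma 3.58.1), with DESeq2 1.42.0, with its size factors, with total counts, with 2 other filters, with a replicate block, with the compared groups alone, with a condition on log2FC, and without each library in turn.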

Additional observations from a re-analysis of the deposited data

Results flagged for a closer look

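For 3 of the clock genes, the log2FC against the same vehicle libraries differed between 12 h and 2 h of TGFβ, by the test of 12 h against 2 h. Of all tested genes 34.1% were called in that test, so this count of 3 of 10 is not a result about clock genes as a group. The time without serum or insulin and the time of collection differ as well, and they cannot be told apart from the time with TGFβ. For Nr1d1 the difference in log2FC was 1.77 (edgeR's adjusted p = 0.00388), and its sign against vehicle went from -0.90 at 2 h, not called, to 0.86 at 12 h. For Per2 it was -0.96 (edgeR's adjusted p = 0.00603), with 0.08 at 2 h and -0.88 at 12 h. For Bhlhe40 it was 0.92 (edgeR's adjusted p = 0.00379), where both times were higher than vehicle.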

How the results depend on the processing

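Of the log2FC of the 10 clock genes in 3 contrasts, recomputed under settings that kept all libraries, 227 had the same direction and the same side of the threshold, 10 newly passed, 2 no longer passed and 1 changed sign. With a library left out the numbers were 162, 3, 10 and 5. The sign changed only in values that were not called. Those were Per2 at 2 h, at -0.0342 with total counts and from -0.0599 to 0.1812 over the libraries left out, Cry1 at 12 h (-0.2101 to 0.0491), Nr1d2 at 12 h (-0.0297 to 0.4485) and Arntl between the times (-0.0224 to 0.3023), and the cause was not tested. Total counts in place of TMM moved the median log2FC of all genes from -0.01 to -0.12 at 2 h and from 0.02 to -0.11 at 12 h.

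Between the times, 5 clock genes in place of 3 were called with total counts, with 3737 of all genes in place of 3775. The replicate number as a block also gave 5 there, with 5373 of all genes. At 2 h the block gave 6 clock genes in place of 4, with 3222 of all genes in place of 1680. At 12 h it gave 16 other clock genes in place of 11, with 6127 of all genes in place of 4799. Same-numbered libraries deviated from their group means together (correlation over genes: vehicle with 2 h 0.708, vehicle with 12 h 0.263, and 0.392 for the times of TGFβ), but with 2 numbers and no stated pairing they are not treated as pairs. With only the 2 groups in the fit, 893 genes were called at 2 h. With an absolute log2FC above 1, the other clock genes called were 4 at 2 h (10 without it) and 3 between the times (9 without it), the clock genes called were 2 at 12 h and 1 between the times, and all genes called were 692 at 2 h, 2176 at 12 h and 1593 between the times, since this condition is stricter.

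With a library left out, its group has 1 library, which is assumed to vary like the others, and fewer samples set the spread. All genes called then ran from 618 to 2196 at 2 h (618 and 709 without vehicle replicates 1 and 2, 900 without either 12 h library), from 2822 to 5410 at 12 h (2898 and 2822 without 12 h replicates 1 and 2), and from 1605 to 3816 between the times (1605 and 1660 without the same libraries). Other clock genes called ran from 5 to 10 at 2 h (5 and 6 without the vehicle libraries) and from 2 to 11 between the times (2 and 4 without the 12 h libraries). Clock genes called ran from 3 to 5 at 2 h, 5 to 6 at 12 h and 2 to 4 between the times. Calls of Bhlhe40, Dbp and Cry2 against vehicle held in each of the settings at both times, apart from the condition on log2FC, which Cry2 missed at 12 h. Depth limits Dbp and Nr1d1 most, whose lowest counts in a library were 43 and 58.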
